A study of Drosophila melanogaster with 38 samples.

Results

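The antioxidant defence genes described here are 10 genes chosen by symbol: the superoxide dismutases Sod1, Sod2 and Sod3, catalase (Cat), thioredoxin reductase Trxr1, thioredoxin Trx-2 (current symbol Trx2), the catalytic and modifier subunits of glutamate-cysteine ligase (Gclc and Gclm), and the regulators Keap1 and cnc. Each was read from its probe set with the highest mean over 36 arrays. Of the 10 genes, 9 had a probe set that the array annotation gave to that gene alone, and Sod1 was not analysed here. They are 9 of the 11981 genes so named, and they held 11 of 18769 probe sets, since Sod3 and cnc had 2 each. Canton-S flies were kept in mixed-sex vials, and RNA of head and thorax was taken from at least 75 females, pooled, for each array. The CF cohort lived on control food with 150 g/L each of sucrose and autolysed yeast. The RF cohort lived on restricted food with 50 g/L of each, and the SF cohort was moved from control to restricted food at an age of 40 days. Each cohort was sampled at 12 times after the switch, which were 2, 4, 6, 8, 12 and 18 hours (h) on the first day and then 24, 32, 40, 48, 56 and up to 72 h, with 1 array for each cohort and time. CF and RF also had an array at 0 h.

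Superoxide dismutases turn superoxide into hydrogen peroxide in the cytosol (Sod1), in mitochondria (Sod2) and outside the cell (Sod3), and catalase breaks down hydrogen peroxide, mainly in peroxisomes. Flies lack a glutathione reductase, so thioredoxin reductase and thioredoxin also keep glutathione reduced. Glutamate-cysteine ligase makes the committed step of glutathione synthesis. The transcription factor CncC, a product of cnc and the fly counterpart of mammalian Nrf2, pairs with the small Maf protein encoded by maf-S to induce detoxifying and antioxidant genes, and Keap1 binds it and promotes its breakdown.

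Values are expression scores on the log2 scale, and a difference of 1 is a 2-fold change. Cohorts were compared by limma on 12 time-matched pairs of arrays, and p-values of 9420 probe sets in 3 comparisons were adjusted together. None of the 9 measured genes passed an adjusted p of 0.05 in any comparison, against 7.42% of all tested probe sets between RF and CF, 1.80% between SF and CF, and 1.95% between SF and RF. At an unadjusted p under 0.05 there were 2 of 9 between RF and CF (Trxr1 and Gclc), 0 between SF and CF, and 1 between SF and RF (Sod2). The shares of all probe sets at that level were 23.0%, 9.12% and 12.4%. The methods' paired test also called 0 of 9 in each comparison after Benjamini-Hochberg adjustment. All 9 genes had overlapping ranges of scores in every pair of cohorts, but so did MsrA and Men, described below, which were called. How many of all probe sets overlap in this way was not counted. The median size of the 9 differences was 0.076 between RF and CF, 0.058 between SF and CF and 0.10 between SF and RF. Over all tested probe sets it was 0.070, 0.065 and 0.093.

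The leading principal component of the arrays went with transcripts of the eggshell, and its correlation with other markers was not computed. Over the 36 arrays, 45.9% of the variance lay on the leading principal component, whose correlation with the mean of 11 chorion and vitelline membrane genes had a size of 0.900. That mean ran from 10.5 to 13.3 at 2 to 72 h, and it was 8.68 in CF and 5.69 in RF at 0 h, so both 0 h arrays lay below all others. Eggshell genes belong to follicle cells of the ovary, which lies in the abdomen, and the samples are labelled as head and thorax. None of the 11 eggshell genes, 3 neuronal markers or 2 photoreceptor markers was called in any comparison. Over the 36 arrays the neuronal mean ran from 6.74 to 8.35, and the photoreceptor mean from 10.4 to 12.0. At 0 h both means lay above these ranges. The neuronal mean was then 8.71 in CF and 8.80 in RF, and the photoreceptor mean was 12.2 and 12.5. Of 5 fat body markers, RF had 4 and SF had 3 below the level of CF, and their mean ran from 13.5 to 14.1 in CF, from 12.7 to 13.4 in RF and from 12.8 to 13.9 in SF. The 5 were far apart in RF minus CF, at -3.17 for Lsp2, -0.70 for fit, -0.15 for Yp2, -0.12 for Yp3 and -0.0075 for Yp1. Lsp2 thus weighs most in the mean. Of 4 flight muscle markers, 2 were higher and 1 was lower in RF than in CF, and 1 was higher and 1 was lower in SF than in RF. Their mean ran from 8.54 to 10.2 over the 36 arrays, and at 0 h it was 10.6 in CF and 10.7 in RF. Of 4 midgut markers 1 was lower in RF than in CF, and their mean ran from 14.2 to 14.4. The mean of 3 male accessory gland markers ran from 3.63 to 4.07. In RNA of whole body parts, fewer cells of a type and less RNA per cell cannot be told apart.

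**Figure D1:**
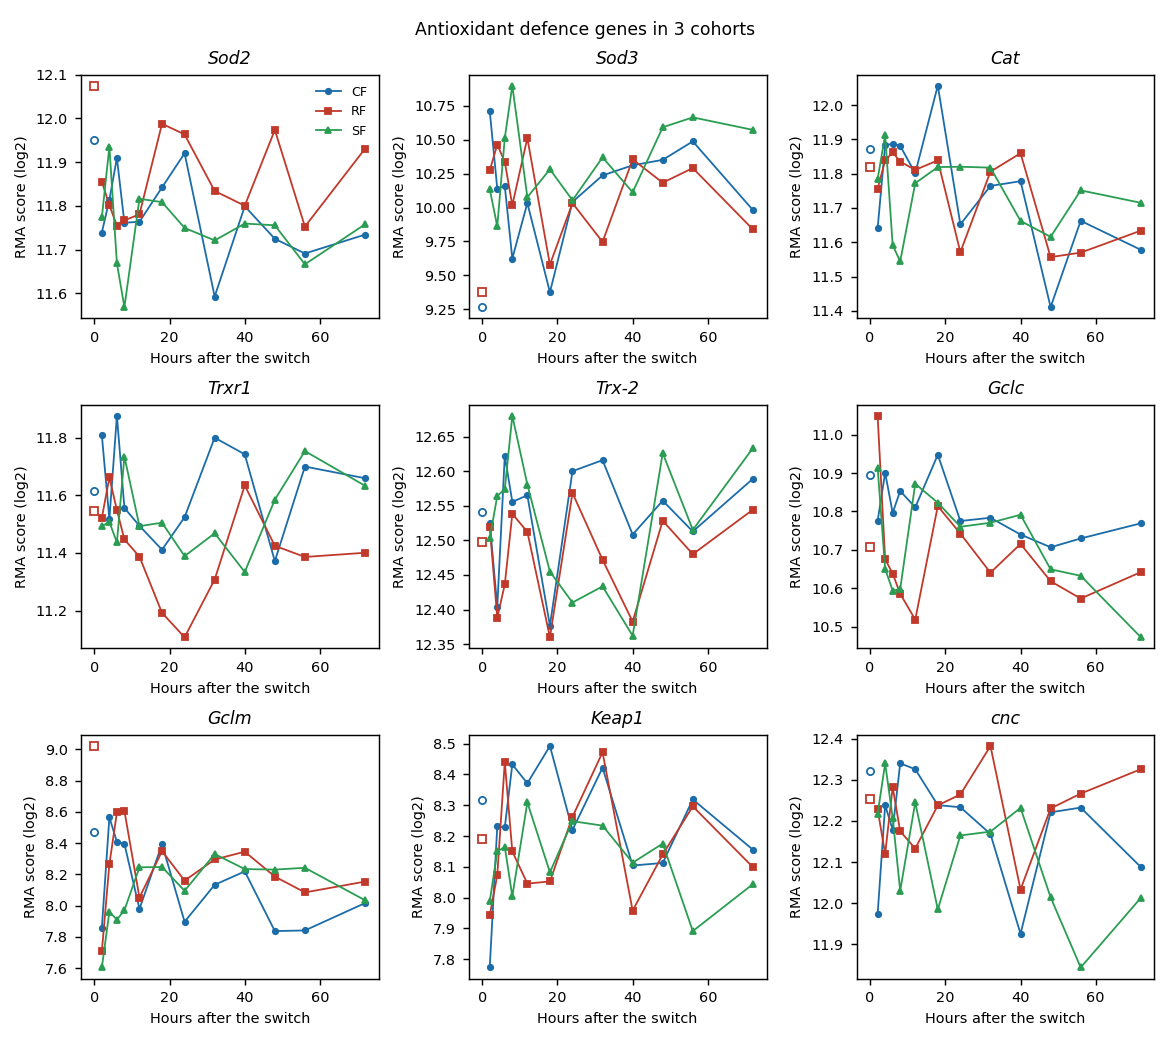
Expression scores (log2) of the 9 measured genes against hours after the switch, in CF (circles), RF (squares) and SF (triangles), with 1 array per point and the 0 h arrays as open symbols. The 3 cohorts overlap in every panel, as they also do for the called genes MsrA and Men. Sod3, with a range of 1.33 in CF, varied more over time than Trx-2, with a range of 0.25.

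Sod2 encodes the manganese superoxide dismutase of mitochondria (probe set 1622984_at). Its scores ran from 11.59 to 11.92 in CF (median 11.76), from 11.75 to 11.99 in RF (median 11.82), and from 11.57 to 11.94 in SF (median 11.76). RF held the highest score of the 3 cohorts at 9 of 12 times, among them all 7 times from 18 to 72 h, and the lowest score of all was that of SF at 8 h. The mean difference was 0.076 in RF minus CF (SE 0.039, 95% interval -0.0075 to 0.16), positive in 10 of 12 pairs (adjusted p = 0.395 from limma). In SF minus RF it was -0.10 (SE 0.040, 95% interval -0.19 to -0.015), negative in 10 of 12 pairs (adjusted p = 0.241 from limma; exact two-sided sign-flip test over the pairs, p = 0.0112). With limma's array weights that difference was -0.13 and passed the threshold (adjusted p = 0.0236 from limma). SF minus CF was -0.026 (SE 0.043, 95% interval -0.12 to 0.067).

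Sod3 encodes the extracellular copper and zinc enzyme (probe set 1636961_a_at). Its scores ran from 9.38 to 10.71 in CF (median 10.15), from 9.58 to 10.51 in RF (median 10.23), and from 9.86 to 10.90 in SF (median 10.33). It was lowest at 18 h in both CF and RF, and highest at 8 h in SF. The mean difference was 0.22 in SF minus CF (SE 0.14, 95% interval -0.069 to 0.52, adjusted p = 0.488 from limma) and 0.21 in SF minus RF (SE 0.13, 95% interval -0.075 to 0.49, adjusted p = 0.501 from limma). These pairs spread widely: SF minus CF ran from -0.58 at 2 h to 1.27 at 8 h. RF minus CF was 0.015 (95% interval -0.17 to 0.20), and it was 0.19 at 2 to 18 h and -0.16 at 24 to 72 h. The second probe set of Sod3 followed the first (r = 0.954 over 36 arrays), and gave -0.032 in RF minus CF, 0.13 in SF minus CF and 0.16 in SF minus RF, none of which passed.

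Cat had nearly the same mean score in the 3 cohorts (probe set 1639480_at): 11.75 ± 0.17 (SD, n = 12) in CF, 11.74 ± 0.12 in RF and 11.73 ± 0.11 in SF. Scores ran from 11.41 to 12.06 in CF (median 11.77), from 11.56 to 11.86 in RF (median 11.81), and from 11.54 to 11.91 in SF (median 11.76). The lowest score was at 48 h in both CF and RF, and at 8 h in SF. The ratio of RF to CF was 0.997, with a 95% interval of 0.946 to 1.05, that of SF to CF was 0.989 (0.908 to 1.08), and that of SF to RF was 0.992 (0.917 to 1.07). Over the 12 times, Cat in CF and Cat in RF had a correlation of 0.812.

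Trxr1 came nearest to the threshold. Its product uses NADPH to reduce thioredoxin (probe set 1641487_a_at). Scores ran from 11.37 to 11.88 in CF (median 11.61), from 11.11 to 11.66 in RF (median 11.41), and from 11.33 to 11.75 in SF (median 11.50). RF was below CF at 10 of 12 times, by most at 32 h (-0.49), and was above CF at 4 and 48 h. The mean difference in RF minus CF was -0.20 (SE 0.054, 95% interval -0.32 to -0.088), a ratio of 0.869 (adjusted p = 0.0530 from limma; exact two-sided sign-flip test, p = 0.00488). It passed without 4 h (-0.24, adjusted p = 0.0161 from limma) and without 48 h (-0.23, adjusted p = 0.0432 from limma), and over all 12 omissions the adjusted p ran from 0.0161 to 0.119. It also passed with array weights, with the eggshell mean as a covariate, with the 0 h pair added and under 2 other adjustments, where 7.71% to 16.6% of all tested probe sets did, and without the pairing by time its adjusted p was 0.136. In SF minus CF the difference was -0.094 (SE 0.066, 95% interval -0.24 to 0.049), and in SF minus RF it was 0.11 (SE 0.063, 95% interval -0.026 to 0.24).

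Trx-2, the thioredoxin reduced by Trxr1, was lower in RF than in CF at all 12 times, but by little (probe set 1629426_s_at). Scores ran from 12.38 to 12.62 in CF (median 12.56), from 12.36 to 12.57 in RF (median 12.50), and from 12.36 to 12.68 in SF (median 12.54). The 12 pairs in RF minus CF lay between -0.19 at 6 h and -0.0064 at 2 h. Their mean was -0.059 (SE 0.028, 95% interval -0.12 to 0.0021), a ratio of 0.960, with adjusted p = 0.358 from limma. The exact two-sided sign-flip test gave p = 4.88e-04, which is the smallest it can give over 12 pairs and is not adjusted for the 27 differences of the 9 genes. SF minus CF was -0.0080, positive in 7 of 12 pairs, and SF minus RF was 0.051, positive in 8 of 12 pairs.

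Gclc, the catalytic subunit of glutamate-cysteine ligase (probe set 1625362_at), scored from 10.71 to 10.95 in CF (median 10.78), from 10.52 to 11.05 in RF (median 10.64), and from 10.47 to 10.91 in SF (median 10.71). RF was below CF at 11 of 12 times, and above it at 2 h, when RF had its highest score. The mean difference in RF minus CF was -0.11 (SE 0.045, 95% interval -0.21 to -0.018), a ratio of 0.924 (adjusted p = 0.231 from limma; exact two-sided sign-flip test, p = 0.0239). Without 2 h it was -0.15 and passed (adjusted p = 0.0303 from limma). SF was below CF in 9 of 12 pairs, at -0.089 (SE 0.047, 95% interval -0.19 to 0.013, adjusted p = 0.425 from limma). SF minus RF was 0.026 (95% interval -0.071 to 0.12).

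Gclm is the modifier subunit that makes the ligase more efficient (probe set 1640552_at). Scores ran from 7.84 to 8.56 in CF (median 8.07), from 7.71 to 8.61 in RF (median 8.22), and from 7.60 to 8.33 in SF (median 8.16). At 2 h all 3 cohorts were low, at 7.86 in CF, 7.71 in RF and 7.60 in SF. At 4, 6 and 8 h CF scored 8.56, 8.41 and 8.40, RF scored 8.26, 8.60 and 8.61, and SF scored 7.96, 7.91 and 7.97. Thus SF lay below both other cohorts at these times. At 24 to 72 h the means were 7.99 ± 0.16 (SD, n = 6) in CF, 8.20 ± 0.097 in RF and 8.19 ± 0.11 in SF. The mean differences over all times were 0.10 in RF minus CF (SE 0.054, 95% interval -0.010 to 0.22), -0.037 in SF minus CF (SE 0.095, 95% interval -0.24 to 0.17) and -0.14 in SF minus RF (SE 0.078, 95% interval -0.31 to 0.027), with adjusted p of 0.395, 0.874 and 0.443 from limma. At 24 to 72 h alone, RF minus CF was 0.21 and passed (adjusted p = 0.0318 from limma), as did 18.3% of all tested probe sets at these times. The change of each difference from the earlier to the later times did not pass its test.

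Keap1, the CncC inhibitor, scored from 7.77 to 8.49 in CF (median 8.23), from 7.94 to 8.47 in RF (median 8.12), and from 7.89 to 8.31 in SF (median 8.13, probe set 1633773_s_at). Its lowest score was at 2 h in CF and RF, and at 56 h in SF. The mean differences were -0.078 in RF minus CF (95% interval -0.20 to 0.044), -0.12 in SF minus CF (95% interval -0.25 to 0.011) and -0.044 in SF minus RF (95% interval -0.17 to 0.081). The smallest adjusted p of the 3 was 0.390 from limma.

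cnc itself scored from 11.93 to 12.34 in CF (median 12.23), from 12.03 to 12.38 in RF (median 12.23), and from 11.84 to 12.34 in SF (median 12.17, probe set 1633379_s_at). CF and RF were lowest at 40 h, and SF was lowest at 56 h. The mean differences were 0.043 in RF minus CF (95% interval -0.055 to 0.14), -0.058 in SF minus CF (95% interval -0.19 to 0.077) and -0.10 in SF minus RF (95% interval -0.23 to 0.029), and the smallest adjusted p was 0.481 from limma. The cnc gene makes several protein isoforms, and which of them this probe set reads is not given in the sources used here. The second probe set of cnc had a mean of 3.79, below the minimum of 6, and was left out of the main test. Fitted without the minimum, it gave 0.13 in RF minus CF, 0.24 in SF minus CF and 0.10 in SF minus RF. None of these passed, and the smallest adjusted p was 0.356 from limma.

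**Figure D2:**
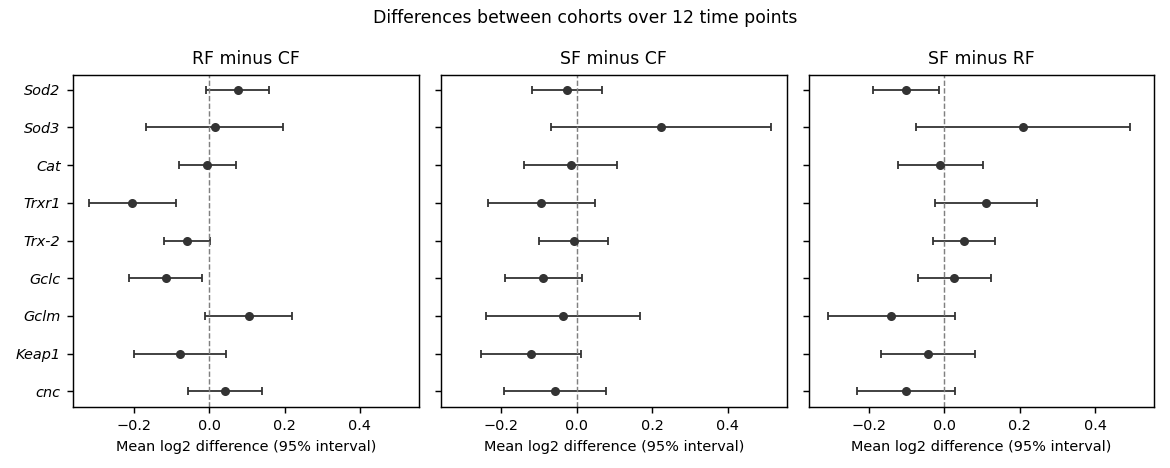
Mean log2 difference of each gene between cohorts over 12 pairs of arrays, with limma's 95% interval. The intervals of Trxr1 and Gclc in RF minus CF and of Sod2 in SF minus RF lie to 1 side of 0, and those of Sod3 are the widest in each comparison.

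Of the 9 genes, 8 had a negative mean difference in SF minus CF, the exception being Sod3. Among the 8, Trx-2 (-0.0080), Cat (-0.016) and Gclm (-0.037) were positive in 7 of 12 pairs, and Sod2 (-0.026) in 6. Trxr1, Gclc, Keap1 and cnc were negative in 8, 9, 8 and 7 of 12. Sod2, Cat and Gclm changed sign with array weights, and Cat and Trx-2 with median centring. In RF minus CF 5 of the 9 genes were negative and 4 positive, and in SF minus RF 5 were negative and 4 positive. Over all tested probe sets, 4349 of 9420 were negative in SF minus CF, 5078 in RF minus CF and 4459 in SF minus RF. These 3 comparisons share cohorts.

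Whether a difference between cohorts itself changed with time was tested as its mean at 24 to 72 h minus its mean at 2 to 18 h. No probe set was called in any comparison (0% of 9420), while 21.7%, 14.2% and 2.05% had an unadjusted p under 0.05 in RF minus CF, SF minus CF and SF minus RF. Of the 9 genes 2, 1 and 0 did. For Gclm in SF minus CF, the difference was -0.28 at 2 to 18 h and 0.20 at 24 to 72 h, a change of 0.48 (SE 0.14, 95% interval 0.17 to 0.79, adjusted p = 0.369 from limma). In RF minus CF it went from -0.0040 to 0.21, a change of 0.22 (SE 0.092, 95% interval 0.019 to 0.42, adjusted p = 0.374 from limma). For Sod3 in RF minus CF the change was -0.35 (SE 0.14, 95% interval -0.66 to -0.039, adjusted p = 0.371 from limma). The other 24 changes lay between -0.15 and 0.26.

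Flies were kept in a cycle of 12 h light and 12 h dark, and the hours 8, 32 and 56 fall at a different time of day from 24, 48 and 72. Between these hours, on means of the 3 cohorts, 0 of the 9 genes and 0.117% of all probe sets were called by limma. At an unadjusted p under 0.05 there was 1 of 9, against 9.76% of all probe sets. The 1 gene was Sod2, at -0.13 (SE 0.052, 95% interval -0.25 to -0.0047, adjusted p = 0.501 from limma). The 9 differences ran from -0.13 to 0.14.

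At 0 h, where CF and RF had 1 array each, some genes lay outside their own later range. Sod2 was 11.95 in CF and 12.07 in RF, above every later score of its cohort. Sod3 was 9.27 in CF and 9.38 in RF, below every later score. Gclm was 9.02 in RF, above the highest later score of 8.61, and 8.47 in CF, within the later range. The other 6 genes lay inside the range of their cohort at 2 to 72 h. The eggshell mean was lowest in these same arrays, and the neuronal, photoreceptor and flight muscle means were highest. With 1 array per cohort no test was made.

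Sod3 followed the eggshell mean of the same array, with r = 0.850 over 36 arrays, 0.857 within CF, 0.875 within RF and 0.841 within SF (12 arrays each). Its score changed by 0.37 for each unit of the eggshell mean, and its second probe set had r = 0.906. The array of SF at 8 h had the highest eggshell mean, 13.3, and the highest Sod3 score, and that of CF at 18 h had the lowest of both, 10.5 and 9.38. Cat (r = -0.551), cnc (-0.542), Keap1 (-0.517), Gclm (-0.515) and Sod2 (-0.489) ran the other way. Their signs were the same within each cohort, but the value was near 0 for Gclm in SF (r = -9.75e-05) and small for Cat in RF (-0.144). Trxr1 (0.420), Trx-2 (0.273) and Gclc (-0.251) were weaker, and Gclc had r = -0.882 within CF and 0.015 within RF. These arrays share the scaling of all scores, and the values are descriptions. With the eggshell mean as a covariate, the difference of Sod3 was 0.13 in SF minus CF and 0.093 in SF minus RF (adjusted p = 0.528 for both from limma). Among the other redox genes, dhd, a thioredoxin of the female germ line, had r = 0.895 with the eggshell mean, and Ggt-1, which encodes a gamma-glutamyl transpeptidase, had r = 0.920.

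**Figure D3:**
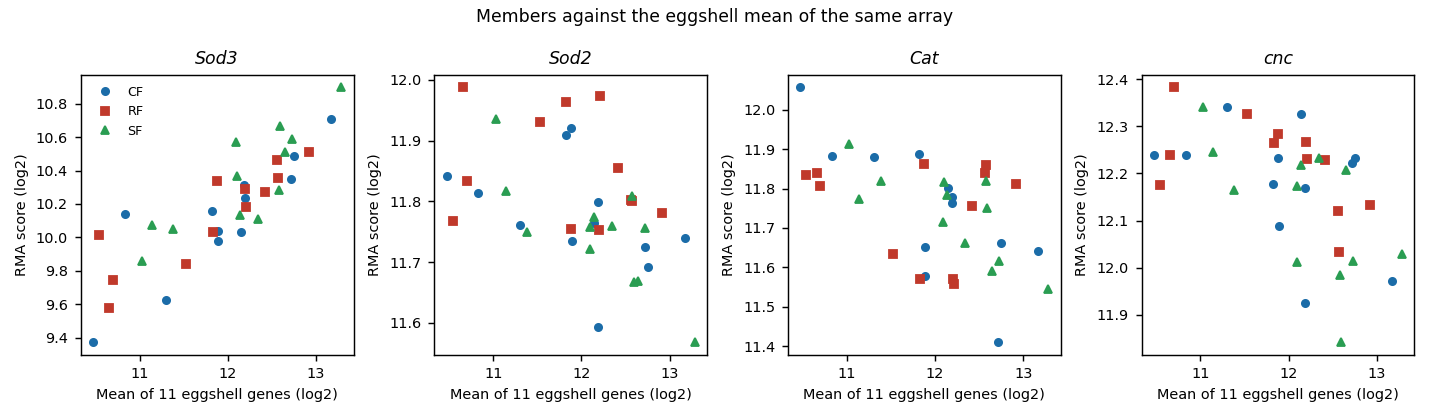
Score (log2) of Sod3, Sod2, Cat and cnc against the mean of 11 eggshell genes (log2) on the same array, for 36 arrays at 2 to 72 h by cohort. Sod3 is higher on arrays with a higher eggshell mean (r = 0.850), and the other 3 are lower (r = -0.489, -0.551 and -0.542).

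The 9 genes did not vary as a block over the 36 arrays. Of their 36 pairwise correlations, 18 were positive and 18 negative, with a median of 0.0063 and a range of -0.653 to 0.627. The highest was that of Keap1 with cnc (r = 0.627, and 0.731 within CF, 0.689 within RF and 0.597 within SF). After the part linear in the eggshell mean was removed from both, it was 0.482. The lowest were those of cnc with Sod3 (-0.653) and of Sod2 with Sod3 (-0.582), which became -0.435 and -0.362. Trxr1 ran against cnc (r = -0.567) and with GstD1, a glutathione S-transferase that CncC induces (r = 0.708, and 0.675 without the eggshell part). With maf-S, the partner of CncC, Trxr1 had r = -0.532 and GstD1 had r = -0.471. Correlations of the members with the other listed CncC targets were not computed. Gclc and Gclm, the subunits of 1 enzyme, had r = -0.070 (0.754 within CF, -0.485 within RF and 0.017 within SF). Trxr1 and its substrate Trx-2 had r = 0.364 (0.436 within CF, -0.351 within RF and 0.687 within SF). Gclm and Cat had r = 0.510 over all arrays, 0.817 within CF and 0.069 within SF.

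**Figure D4:**
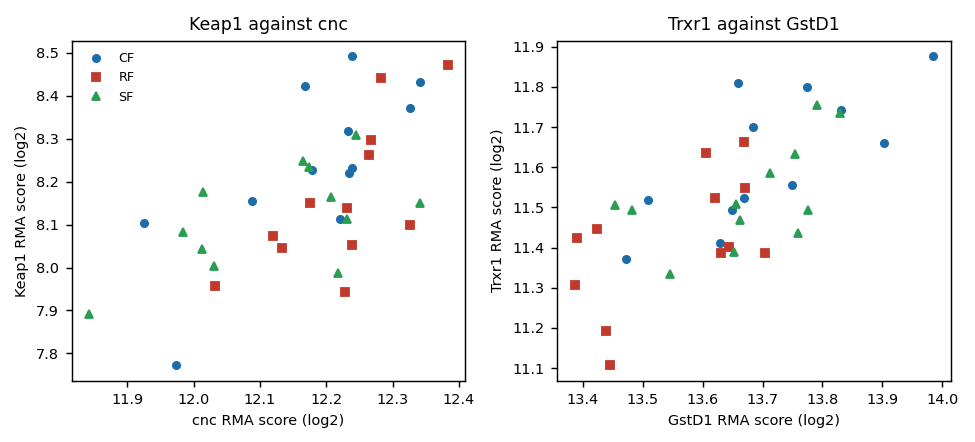
Scores (log2) of Keap1 against cnc and of Trxr1 against GstD1 on the same 36 arrays, by cohort. Both pairs vary in the same direction over the arrays, with r = 0.627 and r = 0.708.

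Around these genes, 41 other genes of the same systems were listed, of which 32 had a probe set of their own and 29 passed the minimum. Between RF and CF, 1 of the 29 was higher and 2 were lower, where 7.42% of all tested probe sets were called in either direction. Between SF and CF 1 was lower, where 1.80% of all were called. Between SF and RF none was called by limma, where 1.95% of all were. At an unadjusted p under 0.05 there were 5 of 29 between SF and RF, against 12.4% of all. The methods' paired test also called 0 of the 29 between SF and RF, against 1.72% of all with Benjamini-Hochberg and 2.54% with Storey adjustment. The median difference of the 29 was -0.049 in RF minus CF, -0.037 in SF minus CF and 0.0030 in SF minus RF, against -0.0091, 0.0088 and 0.0081 over all tested probe sets. No gene was called among 5 peroxiredoxins and peroxidases, 5 thioredoxin and glutaredoxin partners, 4 metal handling genes, 3 genes of the DJ-1 and sestrin group, or Ggt-1 of glutathione turnover. For these 18 genes the differences in RF minus CF lay between -0.17 and 0.10. With 7.42% of all tested probe sets called in that comparison, 0 of 18 does not set these genes apart.

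MsrA (listed as Eip71CD), which reduces oxidised methionine in proteins with electrons from thioredoxin, had the largest difference of the 29 genes in RF minus CF. Its scores ran from 10.42 to 11.77 in CF (median 10.90), from 9.80 to 10.90 in RF (median 10.25), and from 10.09 to 11.69 in SF (median 10.58). RF was below CF at all 12 times, by 0.33 or more on the log2 scale. The difference was -0.70 (SE 0.065, 95% interval -0.84 to -0.56), a ratio of 0.615 (adjusted p = 4.99e-05 from limma). At 2 to 18 h alone it was -0.64 and did not pass (adjusted p = 0.136 from limma), where 0.180% of all tested probe sets did. At 24 to 72 h alone it was -0.76 and passed (adjusted p = 0.00136 from limma), as did 18.3% of all. SF lay between CF and RF, at -0.29 against CF (SE 0.11, adjusted p = 0.225 from limma) and 0.41 against RF (SE 0.12, adjusted p = 0.0826 from limma). The difference of SF from RF was positive in 11 of 12 pairs and passed with the eggshell mean as a covariate (0.49, adjusted p = 0.00628 from limma). SF minus CF was -0.14 at 2 to 18 h and -0.44 at 24 to 72 h. It passed at 24 to 72 h alone (adjusted p = 0.0268 from limma), as did 4.31% of all tested probe sets. Without 4 h it was -0.37 and passed (adjusted p = 0.0419 from limma). SelR, the other methionine sulfoxide reductase, had 0.10 in RF minus CF (adjusted p = 0.159 from limma).

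Men encodes malic enzyme, which makes NADPH. Its scores ran from 12.30 to 13.06 in CF (median 12.77), from 11.65 to 12.91 in RF (median 12.29), and from 11.68 to 12.82 in SF (median 12.22). Both RF and SF were below CF at all 12 times. In SF minus CF the difference was -0.56 (SE 0.073, 95% interval -0.72 to -0.41), a ratio of 0.677 (adjusted p = 6.33e-04 from limma), beside 0.711 in RF over CF. SF minus RF was -0.071 (SE 0.056, 95% interval -0.19 to 0.051). At 2 to 18 h alone SF minus CF was -0.52 and did not pass (adjusted p = 0.227 from limma), but 0 of 9420 probe sets passed there. At 24 to 72 h alone SF minus CF was -0.61 and passed (adjusted p = 0.0126 from limma), as did 4.31% of all. Idh, which encodes the NADPH-making isocitrate dehydrogenase, had -0.045 in RF minus CF and -0.077 in SF minus CF, and neither passed.

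Of 7 genes listed with CncC as partner or targets, maf-S was called between RF and CF, with a higher score in RF by 0.14 (SE 0.036, 95% interval 0.062 to 0.22, 10 of 12 pairs positive, adjusted p = 0.0472 from limma). Its scores ran from 10.92 to 11.33 in CF (median 11.14), from 11.08 to 11.51 in RF (median 11.26), and from 11.04 to 11.33 in SF (median 11.20). The call held in 2 of 12 omissions of 1 time (without 4 and without 12 h), and the adjusted p over the 12 ran from 0.0290 to 0.111. It was also lost without the minimum score (adjusted p = 0.109 from limma), after median centring of the arrays (adjusted p = 0.0557 from limma) and without the pairing (adjusted p = 0.153 from limma). At 2 to 18 h alone maf-S did not pass either (adjusted p = 0.809 from limma), where 0.180% of all tested probe sets did. GstD1 was at -0.16 in RF minus CF (SE 0.049, adjusted p = 0.110 from limma), with 10 of 12 pairs negative. It passed without 4 h (-0.19, adjusted p = 0.0352 from limma). The other 5, which are ref(2)P, GstD2, Cyp6a2, Cyp6a8 and Jheh2, were not called in any comparison. In RF the fat body markers Lsp2 (-3.17), fit (-0.70), Yp2 (-0.15) and Yp3 (-0.12) were lower than in CF as well, and Yp1 (-0.0075) was not called. Their part in the values above was not tested.

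**Figure D5:**
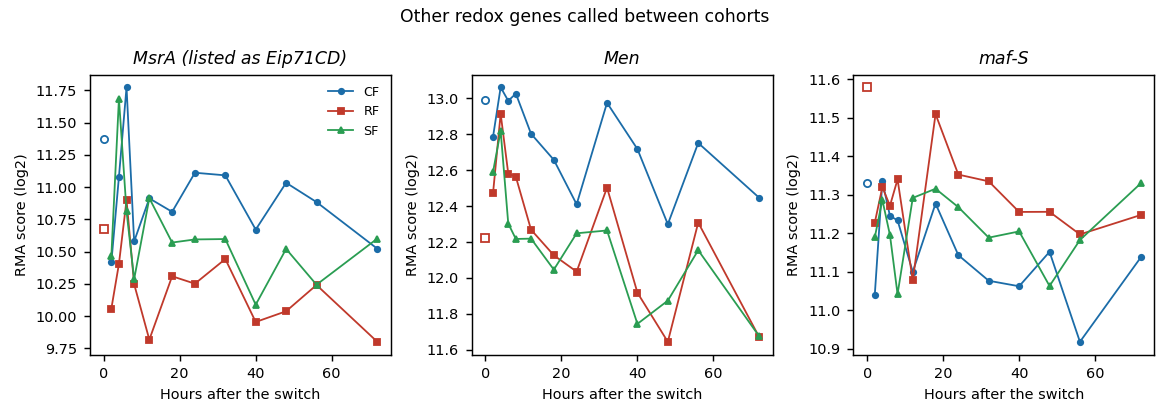
Scores (log2) of MsrA, Men and maf-S against hours after the switch, with symbols as in the plot of the 9 genes. RF lies below CF at all 12 times for MsrA and Men, SF lies below CF at all 12 times for Men, and for maf-S RF is above CF at 10 of 12.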

How the data were processed

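RNA of head and thorax was hybridised to Affymetrix Drosophila 2.0 arrays, 38 in all. The authors quantile normalised the arrays and summarised them by RMA (also named in the submitters' processing notes), which gives the deposited log2 scores. The methods also name a PVAC filter, but the deposited table holds all 18952 probe sets. RMA scores compress small signals and have no count of molecules behind them, so the number of arrays limits the precision. Arrays at 0 h were used only where named. Array controls (183 probe sets) were left out, and 9420 of 18769 probe sets with a mean of at least 6 were tested.

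Cohorts were compared with limma 3.58.1 in R 4.3.3 on differences between arrays of the same collection time, the pairing of the study's methods, with Benjamini-Hochberg adjustment over 3 comparisons together at 0.05. Arrays of the same time mostly deviated together across probe sets in CF and RF (median r = 0.511 over 12 times, from -0.092 to 0.69). For CF and SF the median was 0.147 (from -0.60 to 0.71), and for RF and SF it was 0.071 (from -0.68 to 0.66). Some arrays paired with SF thus deviated in opposite directions. Single genes were also tested by an exact sign-flip test over 12 pairs. Per the study's methods flies of at least 3 vials were taken per cohort and time, and p-values measure the spread between the 12 pairs of 1 experiment. The paired fit was also run on simulated pairs with independent normal errors. These lack the variation that real arrays share across probe sets, so that run does not test the p-values given here. Members and lists were chosen with earlier results of these data known. Named were all members, by their probe set with the highest mean, and of the other lists the genes called in at least 1 comparison. Probe sets were named through the platform annotation (13646 with 1 symbol, 402 with several, 4721 with none). No sequence is printed. Alternatives were no pairing, no filter, median centring, array weights, an eggshell covariate, the methods' paired t-test with Benjamini-Hochberg or Storey adjustment, a single fit of the 3 cohorts, separate adjustment, early or late times, the 0 h pair, and leaving out each time.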

Additional observations from a re-analysis of the deposited data

How the results depend on the processing

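The members' counts of 0 stayed at 0 in SF minus CF, in the late minus early change and between times of day under every alternative run. Of all tested probe sets, the alternatives called 0% to 4.98% in SF minus CF. They called 0% to 0.0106% in the late minus early change and 0% to 0.626% between times of day. At such shares, counts of 0 say little about the members. In RF minus CF the count was 1 with array weights, with the eggshell covariate, with Storey adjustment of the t-test, with separate adjustment of the comparisons, with the 0 h pair (each Trxr1), and at 24 to 72 h alone (Gclm), and 0 to 1 when 1 time was left out. Of all tested probe sets, these settings called 16.6%, 9.20%, 8.29%, 9.86%, 7.71% and 18.3% in that order, and 5.28% to 8.66% with 1 time left out, against 7.42%. In SF minus RF it was 1 with array weights (Sod2), where 9.61% of all were called. The other redox genes called in RF minus CF numbered 0 of 29 at 2 to 18 h alone (0.180% of all) and 5 of 29 at 24 to 72 h alone (18.3% of all). They numbered 2 without the filter (3.15% of all) or with centring (7.10% of all), maf-S being lost. When 1 time was left out they numbered 2 to 4 (5.28% to 8.66% of all). In SF minus CF they numbered 2 with array weights (4.98% of all), 0 at 2 to 18 h alone (0% of all) and 3 at 24 to 72 h alone (4.31% of all). With 1 time left out they numbered 1 to 2 (0.998% to 2.22% of all). In SF minus RF they numbered 1 with centring, array weights, the eggshell covariate or the single fit, and 0 to 1 when 1 time was left out. Of all tested probe sets, these settings called 1.99%, 9.61%, 3.44% and 3.29% in that order, and 1.28% to 2.75% with 1 time left out. Without the pairing by time (no replicate block) the members' counts were 0 in each comparison, and the other redox genes called numbered 2, 1 and 0, maf-S again being lost. The shares of all tested probe sets were then 3.59%, 1.15% and 2.00%. Over all probe sets, 338 were called in RF minus CF without the pairing and 1562 with array weights, against 699. Of 633 alternative values for the 27 member differences, 582 kept direction and call, 10 passed the threshold and 41 changed sign, all of the last among differences that were not called. With array weights these were Sod2 in SF minus CF (0.022), Sod3 in RF minus CF (-0.045), Cat in the order of comparisons RF minus CF, SF minus CF and SF minus RF (0.0018, 0.049 and 0.026), and Gclm in SF minus CF (0.11). With centring they were Sod3 in RF minus CF (-0.0020), Cat in SF minus CF (0.0058) and SF minus RF (0.027), and Trx-2 in SF minus CF (0.014). With the eggshell covariate they were Cat in SF minus CF (0.016) and SF minus RF (0.0059). At 2 to 18 h alone they were Trx-2 in SF minus CF (0.051), Gclm in RF minus CF (-0.0040) and cnc in RF minus CF (-0.020). At 24 to 72 h alone they were Sod3 in RF minus CF (-0.16), Cat in the same order (0.025, 0.089 and 0.064) and Gclm in SF minus CF (0.20). The other probe set of Sod3 gave -0.032 in RF minus CF. Among differences that changed sign when 1 time was left out, Sod3 in RF minus CF ran from -0.028 to 0.061, Cat from -0.018 to 0.015 in RF minus CF, from -0.036 to 0.013 in SF minus CF and from -0.035 to 0.014 in SF minus RF, Trx-2 in SF minus CF from -0.023 to 0.0086, Gclc in SF minus RF from -0.0036 to 0.044, and Gclm in SF minus CF from -0.076 to 0.015. The cause of these changes was not tested.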
